A study of Mus musculus with 6 samples.

Results

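Cholesterol is made, moved and exported by a set of 29 genes that are described here in non-neuronal mouse brain cells after ischemic stroke. The 29 genes were given as a list of symbols, and all of them were found among the 32285 genes of the count matrix. They were not picked by a rule on their levels, but the list was made with earlier results of these data known. They comprise 8 enzymes of the mevalonate steps (Acat2, Hmgcs1, Mvk, Pmvk, Mvd, Idi1, Fdps and Ggps1), 12 enzymes of the sterol steps (Fdft1, Sqle, Lss, Cyp51, Tm7sf2, Lbr, Msmo1, Nsdhl, Hsd17b7, Ebp, Sc5d and Dhcr7), 3 control genes (Srebf2, Scap and Insig1) and 6 genes of sterol traffic, storage and export (Stard4, Npc1, Npc2, Soat1, Abca1 and Abcg1). The summed level of the 20 enzymes is called the synthesis sum, and that of Abca1 and Abcg1 the efflux sum.

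The cells came from brain cortex of male mice aged 8 to 12 weeks that carried 1 RGS5::GFP reporter allele, a label of mural cells, and had a permanent occlusion of the middle cerebral artery (pMCAO). The 6 groups were the contralateral (contra) and the ipsilateral (ipsi) side at 1, 12 and 24 h after pMCAO, each with 1 library of live, neuron-depleted cells. All groups carried the reporter and came from mice with a stroke, so that the contralateral side was the only control. The sources used here do not tie the numbers 1 to 6 of the libraries to these groups, so each library is given by its number, no side or timepoint is compared, and no p-value is given. The sample labels name the v3 kit for the libraries of 1 and 24 h and the v3.1 kit for those of 12 h, and which numbers belong to which kit is equally unknown.

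Cholesterol of the brain is made almost wholly within the brain, because lipoproteins of the blood do not cross the intact blood-brain barrier. The mevalonate steps turn acetyl-CoA into farnesyl diphosphate, squalene synthase and squalene epoxidase commit it to sterols, and a chain of demethylations, reductions and isomerizations turns lanosterol into cholesterol. The pathway is controlled by the transcription factor SREBP2, which its escort SCAP carries from the endoplasmic reticulum to the Golgi and INSIG1 retains, and which binds sterol regulatory elements in promoters. Cholesterol that enters through lysosomes is released by NPC2 and NPC1, esterified for storage by SOAT1, and exported by the transporters ABCA1 and ABCG1, whose genes are targets of the sterol-sensing LXR receptors. In the adult brain, astrocytes are known to make cholesterol and to export it on lipoproteins, and oligodendrocytes make it for myelin.

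To show where these letters stand in front of the genes on which the values turn, promoter windows from 250 bases before to 50 bases after the start of transcription were read from RefSeq (GRCm38.p6), and 23 of the 29 genes had one. Fdps, Fdft1, Sqle, Stard4, Npc1 and Abcg1 had none. The windows were searched on both strands for the core of a sterol regulatory element (TCACNCCA), the CCAAT box and the direct repeat of LXR receptors with a spacer of 4 bases (the LXR repeat). The sterol core was found in 3 of the 23, Hmgcs1, Msmo1 and Srebf2, which is 13%, against 4.97% of 27025 genes. A CCAAT box was found in 20 of the 23 (87.0%) and in 16 of the 17 enzymes with a window (94.1%), against 41.1% of all genes. The LXR repeat was found in none of the 23, Abca1 included, and in 0.0962% of all genes. A match is a run of letters and not a measured binding site, and these motifs do not overlap each other in the windows shown. The 250 bases before the start are printed for the 3 genes with a sterol core. They are followed by the last 100 bases before the start of Cyp51 and Idi1, which have CCAAT boxes and no sterol core, and of Tm7sf2 and Lbr, which encode the pair of enzymes for 1 step of the pathway. Sequences run 5′ to 3′ on the strand of the gene, and capitals mark sterol cores and CCAAT boxes, the latter written ATTGG where the box is on the opposite strand.
Msmo1, chr8:64733579-64733828, minus strand: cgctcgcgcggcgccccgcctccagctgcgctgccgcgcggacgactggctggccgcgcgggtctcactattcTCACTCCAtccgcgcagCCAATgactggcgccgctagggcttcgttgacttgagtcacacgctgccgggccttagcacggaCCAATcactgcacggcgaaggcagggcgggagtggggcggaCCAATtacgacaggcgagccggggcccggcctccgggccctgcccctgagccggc
Hmgcs1, chr13:119690101-119690350, plus strand: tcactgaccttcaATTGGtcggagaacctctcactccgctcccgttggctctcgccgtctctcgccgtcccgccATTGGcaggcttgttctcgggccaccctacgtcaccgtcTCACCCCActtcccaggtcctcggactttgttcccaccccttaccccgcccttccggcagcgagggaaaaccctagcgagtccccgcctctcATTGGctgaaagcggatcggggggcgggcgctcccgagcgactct
Srebf2, chr15:82147019-82147268, plus strand: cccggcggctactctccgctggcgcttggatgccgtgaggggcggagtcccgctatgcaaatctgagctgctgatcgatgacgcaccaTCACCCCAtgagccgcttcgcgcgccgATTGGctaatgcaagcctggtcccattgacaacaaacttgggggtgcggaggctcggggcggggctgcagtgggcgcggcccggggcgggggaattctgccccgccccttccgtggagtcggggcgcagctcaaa
Cyp51, chr5:4104698-4104797, minus strand: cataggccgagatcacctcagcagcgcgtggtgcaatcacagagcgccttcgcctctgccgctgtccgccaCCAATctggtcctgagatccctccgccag
Idi1, chr13:8885506-8885605, plus strand: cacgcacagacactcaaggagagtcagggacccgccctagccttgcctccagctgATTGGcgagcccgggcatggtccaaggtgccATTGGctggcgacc
Tm7sf2, chr19:6067851-6067950, minus strand: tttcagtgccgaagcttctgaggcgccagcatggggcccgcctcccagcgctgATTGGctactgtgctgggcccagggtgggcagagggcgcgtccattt
Lbr, chr1:181842402-181842501, minus strand: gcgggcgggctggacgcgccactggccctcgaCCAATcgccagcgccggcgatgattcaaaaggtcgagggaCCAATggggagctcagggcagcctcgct

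After cells were called and filtered, 17357 cells with 105875444 UMIs remained. A UMI is a molecular tag with which each captured RNA molecule is counted once. Libraries held between 1221 and 5873 cells with median depths between 5053 and 5661 UMIs, median mitochondrial shares between 1.13% and 3.83%, and called doublets between 0.854% and 2.95%. The cells formed 29 clusters, computed without the 29 genes and 28 further genes of the pathway, and were named from cell type markers. Of these cells 16872 fell in 13 classes, 10 of them with at least 100 cells, and 485 cells stayed unnamed. No cluster was named for neurons, oligodendrocyte precursors, ependymal, dendritic, T or NK cells. The 10 classes were microglia-like (7855 cells), oligodendrocyte-like (2782), endothelial-like (2676), astrocyte-like (1164), pericyte-like (882), monocyte-derived macrophage-like (376), neuroblast-like (335), smooth muscle-like (260), H2-Eb1-led (257) and neutrophil-like (177). In 9 of the 10 classes every marker was highest in its own class. The tenth was led by the class II genes H2-Eb1, H2-Ab1 and H2-Aa, scored highest for markers of perivascular macrophages and held the highest level of 4 of these 6. At a clustering resolution of 1.2 it split into 180 cells that scored highest for dendritic cell markers and 77 cells that scored highest for those of perivascular macrophages, so it is called by its leading gene. Libraries 1 and 2 held fewer than 20 cells of each of the 5 smallest classes.

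Levels are given as CPM, the UMIs of a gene per 1000000 UMIs of all genes summed over the cells of a class, with exact 95% Poisson intervals that cover counting error only. Cells are not replicates. The kit reads 3′ ends, so that counts do not scale with gene length, but capture differs between genes and comparisons are made within a gene or a fixed sum.

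The astrocyte-like cells had the highest synthesis sum, with 2461 CPM (2425 to 2497), followed by the neuroblast-like cells with 1479 (1434 to 1526) and the oligodendrocyte-like cells with 1384 (1369 to 1398). The lowest sum was that of the microglia-like cells, 358 CPM (352 to 363), at which the astrocyte-like cells stood 6.88-fold higher (6.73 to 7.03). Between these were the H2-Eb1-led (810), pericyte-like (699), endothelial-like (587), smooth muscle-like (560), monocyte-derived macrophage-like (463) and neutrophil-like cells (433). The astrocyte-like level was 1.66-fold that of the neuroblast-like cells (1.61 to 1.72), and the neuroblast-like level 1.07-fold that of the oligodendrocyte-like cells (1.03 to 1.10). The pooled astrocyte-like level includes libraries 1 and 2 (3651 and 3841 CPM), which held 2 and 7 neuroblast-like cells. Within libraries 3, 4 and 6 the astrocyte-like level was 1.24-fold, 1.66-fold and 1.33-fold that of the neuroblast-like cells. In library 5 the astrocyte-like cells had 2304 CPM and the neuroblast-like cells 1279. In the lower part of the order, the endothelial-like and smooth muscle-like cells could not be told apart within counting error (ratio 1.05, 0.981 to 1.12). Nor could the macrophage-like and neutrophil-like cells that follow them (1.07, 0.944 to 1.22). The lowest rank depended on Lbr and Ggps1, without which neutrophil-like cells were lowest, at 216 CPM against 285 in microglia-like cells. In library 6 neutrophil-like cells were lowest on the full sum as well (354 CPM). Of the 20 enzymes 11 were lowest in neutrophil-like and 3 in microglia-like cells. The astrocyte-like cells were the highest class in 6 of 6 libraries, on a sum that includes Msmo1. Neuroblast-like cells had 1360, 1431, 1279 and 1962 CPM in libraries 3, 4, 5 and 6, above the oligodendrocyte-like cells in 3 of these 4 libraries and below them in library 5. In the H2-Eb1-led class library 6 stood apart, with 1093 CPM in 110 cells, while libraries 3, 4 and 5 had 388, 598 and 398 CPM in 49, 59 and 29 cells, and without library 6 the class had 490 CPM. The makeup of the class differed between libraries as well. Of the 180 cells with dendritic cell markers 97 were from library 6, at 1148 CPM, and 21 and 41 from libraries 3 and 4, at 393 and 587 CPM. The 77 cells with markers of perivascular macrophages had 484 CPM. Free RNA, measured in barcodes of 1 to 50 UMIs, held 992 CPM of the synthesis sum, which is above the microglia-like level and below the astrocyte-like level.

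**Figure D1:**
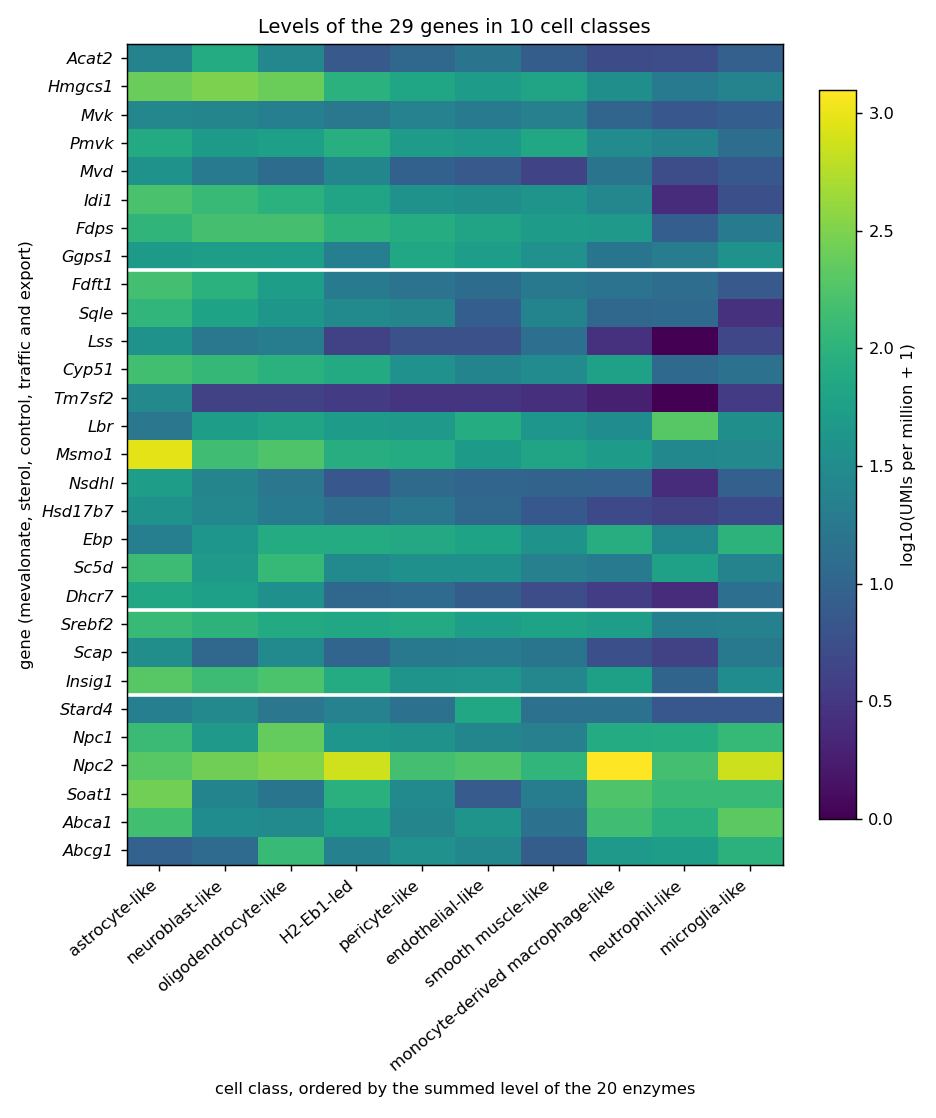
Levels of the 29 genes (rows, in 4 role groups divided by white lines) in the 10 classes (columns, ordered by the synthesis sum), as colour on a log10(CPM + 1) scale over all cells of a class. The astrocyte-like column is brightest at Msmo1 (941 CPM), while Lbr and Ebp are darker there than in the other 9 columns, and Npc2 is brightest in monocyte-derived macrophage-like cells (1259 CPM).

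Astrocyte-like cells also led when single cells were set to equal depth. After each cell was thinned to 1000 UMIs, at least 1 enzyme UMI was found in 81.0% of astrocyte-like, 68.2% of oligodendrocyte-like and 63.9% of neuroblast-like cells. The share lay between 29.6% and 44.6% in the other 7 classes, with microglia-like cells lowest. Unthinned, the share was 98.5% in astrocyte-like cells at a median of 5600 UMIs and 82.6% in microglia-like cells at a median of 5234 UMIs. No cell was shallower than 1000 UMIs.

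To count genes one by one, the level in a class was divided by the mean level of the other 9 classes, and a gene was called at a ratio of at least 2 or at most 0.5. A gene entered when its mean over the 10 classes was at least 5 CPM, which 28 of the 29 genes did. Tm7sf2 did not, and the filter lets a gene enter through 1 class alone. In astrocyte-like cells 17 of the 28 genes were at least 2-fold higher, against 15.7% of all 11458 genes, and 4 were at most 0.5-fold, against 26.8%. The median ratio of the 28 genes was 2.42, and that of all genes 0.909. In neuroblast-like cells 9 genes were higher (19.3% of all genes), all of them enzymes, and 3 were lower (29.2%), namely Soat1, Abca1 and Abcg1. In oligodendrocyte-like cells 8 were higher (11.5%; 6 to 13 over the alternative settings), namely Hmgcs1, Fdps, Lss, Sc5d, Scap, Insig1, Npc1 and Abcg1, and Soat1 and Abca1 were lower (32.9%). The median ratio of the 28 genes was 1.43 in neuroblast-like and 1.38 in oligodendrocyte-like cells, beside 1.05 and 0.811 for all genes.

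The other classes had fewer genes of the list above the fold than below it, and the same was true of all genes tested in each of these classes. In microglia-like cells Abca1 and Abcg1 were higher (12.1% of all genes; 1 to 5 genes over the alternative settings) and 17 genes were lower (27.9%; 12 to 19), 14 of them enzymes. In endothelial-like cells only Stard4 was higher (10.4%), and 12 genes were lower (26.7%), a count that ranged from 4 to 14. In pericyte-like cells no gene was higher (11.0%) and 8 were lower (22.5%), a count that ranged from 3 to 16. Smooth muscle-like cells had 0 higher (8.46%) and 14 lower (27.0%). Monocyte-derived macrophage-like cells had Npc2 and Soat1 higher (6.03%) and 13 lower (50.2%), H2-Eb1-led cells Mvd and Npc2 higher (5.40%) and 9 lower (39.7%), and neutrophil-like cells Lbr higher (7.60%) and 22 lower (64.9%). The median ratio of all genes was 0.497, 0.613 and 0.334 in these 3 classes, and that of the 28 genes 0.529, 0.838 and 0.287. Mvd of the H2-Eb1-led class rested on library 6, without which it was at 8.99 CPM and its ratio of 2.06 became 0.789. Of the other genes called higher, Sqle (1.66), Hsd17b7 (down to 1.78) and Cyp51 (1.96) in neuroblast-like cells, Lss (1.92 or 1.86) in oligodendrocyte-like, Srebf2 (1.99) and Abca1 (1.96) in astrocyte-like and Npc2 (1.98 or 1.93) in H2-Eb1-led cells fell under 2 without 1 library, which was library 3, 4 or 5. Of the lower calls, 13 passed 0.5 without 1 library, at ratios of up to 0.647.

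Among the mevalonate enzymes, no class led throughout. Their summed level was highest in neuroblast-like cells, 800 CPM, 1.11-fold that of astrocyte-like cells (1.05 to 1.17), which had 721. Acat2, the cytosolic thiolase that makes acetoacetyl-CoA, was at 79.7 CPM in neuroblast-like and 26.3 in oligodendrocyte-like cells, a ratio of 3.04 (2.59 to 3.55). Hmgcs1, the HMG-CoA synthase, was at 305 CPM in neuroblast-like, 251 in oligodendrocyte-like and 242 in astrocyte-like cells, and the order of the first 2 turned under median-of-ratios scaling (ratio 0.963). These 3 classes stood above the others, of which none exceeded 94.0 CPM. Idi1, the isopentenyl diphosphate isomerase, was at 160 CPM in astrocyte-like, 121 in neuroblast-like and 93.6 in oligodendrocyte-like cells, and at 4.75 in microglia-like cells. In libraries 3 to 6 it was at 120, 128, 99.1 and 133 CPM in astrocyte-like and 114, 127, 115 and 147 in neuroblast-like cells. The pooled astrocyte-like level includes libraries 1 and 2 (237 and 343 CPM), which held 2 and 7 neuroblast-like cells. Fdps, the farnesyl diphosphate synthase, was at 154 CPM in oligodendrocyte-like and 151 in neuroblast-like cells, which could not be told apart (1.02, 0.919 to 1.13).

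Mvk, Pmvk and Mvd phosphorylate mevalonate and decarboxylate the product. Mvk was highest in astrocyte-like (26.4 CPM) and neuroblast-like cells (24.7), within counting error of each other (1.07, 0.804 to 1.43). Pmvk was at 86.8 CPM in H2-Eb1-led and 77.7 in astrocyte-like cells, and without library 6 the ratio of 1.12 became 0.506. Mvd was at 38.2 CPM in astrocyte-like and 25.3 in H2-Eb1-led cells, the latter with 50 of its 60 UMIs from library 6. Ggps1, whose product makes geranylgeranyl diphosphate for protein prenylation and leaves the sterol route, ranged from 15.1 CPM in monocyte-derived macrophage-like to 69.0 in pericyte-like cells.

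The sterol enzymes separated the astrocyte-like cells more clearly. Their summed level was 1740 CPM in astrocyte-like and 718 in oligodendrocyte-like cells, a ratio of 2.42 (2.37 to 2.48). Msmo1, the methylsterol monooxygenase that starts the removal of the C4 methyl groups, was at 941 CPM in astrocyte-like and 175 in oligodendrocyte-like cells, a ratio of 5.36 (5.16 to 5.57). It alone supplied 38.2% of the astrocyte-like synthesis sum, against 12.7% of the oligodendrocyte-like and 9.61% of the neuroblast-like sum. Much of the astrocyte-like lead in the sterol and synthesis sums therefore rests on Msmo1, and no sum without it was computed. In library 3 Msmo1 made 536 of 1687 CPM of the synthesis sum in astrocyte-like cells and 113 of 1360 in neuroblast-like cells. In library 6 it made 861 of 2610 and 204 of 1962 CPM. In these libraries the classes differed more in Msmo1 than in the whole sum. In astrocyte-like cells the libraries 1 to 6 had Msmo1 at 1441, 1391, 536, 1092, 828 and 861 CPM, and in oligodendrocyte-like cells at 185, 214, 145, 147, 189 and 218, so that the values of these classes do not overlap. After thinning, an Msmo1 UMI was found in 49.7% of the astrocyte-like and 2.79% of the microglia-like cells. Free RNA held 172 CPM of Msmo1, and its part in these shares was not tested.

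Of the other 11 enzymes of this group 9 were highest in astrocyte-like cells as well, followed by neuroblast-like cells for 6 of them and by oligodendrocyte-like cells for Lss, Tm7sf2 and Sc5d. The gap to the next class was smaller than that of Msmo1 for 8 of the 9. Fdft1, the squalene synthase, was at 150 CPM in astrocyte-like, 95.3 in neuroblast-like and 6.41 in microglia-like cells. Sqle, the squalene epoxidase, was at 109 CPM in astrocyte-like, 61.3 in neuroblast-like and 42.8 in oligodendrocyte-like cells. In microglia-like cells Sqle was at 1.80 CPM, the lowest class, where free RNA held 33.0 CPM. Lss, the lanosterol synthase, was at 37.0 CPM in astrocyte-like and 19.2 in oligodendrocyte-like cells, and no UMI of it was found in neutrophil-like cells, which allows up to 4.45 CPM (the level of 3 UMIs). Cyp51, the lanosterol C14 demethylase, was at 144 CPM in astrocyte-like and 114 in neuroblast-like cells, and Nsdhl, a partner of Msmo1 in C4 demethylation, at 53.6 and 25.1. Hsd17b7, Sc5d and Dhcr7, of which the last makes cholesterol from its direct precursor, were highest in astrocyte-like cells as well, at 37.0, 134 and 70.6 CPM, and were 1.41-fold, 1.12-fold and 1.28-fold above the next class. In single libraries, Cyp51 was highest in astrocyte-like cells in 5 of 6 and Hsd17b7 and Dhcr7 in 4 of 6. Neuroblast-like cells were highest in the rest. Altogether 17 of the 29 genes, 13 of the 20 enzymes among them, were highest in astrocyte-like cells over all libraries together. In every library alone, this held for Fdft1, Sqle, Tm7sf2, Msmo1, Nsdhl and Soat1 only.

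Ebp and Lbr went the other way. Ebp, the sterol isomerase that moves the double bond of the B ring, was highest in microglia-like cells at 101 CPM and lowest in astrocyte-like cells at 20.9, and it supplied 28.3% of the microglia-like synthesis sum. Under median-of-ratios scaling monocyte-derived macrophage-like cells passed the microglia-like cells for Ebp, with a ratio of 0.718 in place of 1.21. In microglia-like cells Ebp was at 74.6, 82.9, 102, 103, 93.4 and 111 CPM in libraries 1 to 6, and in astrocyte-like cells at 27.6, 15.3, 18.6, 17.2, 14.9 and 40.7, with no overlap. Microglia-like cells were highest for Ebp in 4 of 6 libraries. Pericyte-like cells were highest in library 1 at 103.6 CPM and oligodendrocyte-like cells in library 2 at 103.5. Lbr, whose product is a protein of the inner nuclear membrane as well as a sterol C14 reductase, was highest in neutrophil-like cells at 197 CPM, or 45.5% of their synthesis sum, followed by endothelial-like cells at 81.9. Astrocyte-like cells were lowest for Lbr, at 15.9 CPM.

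Tm7sf2 encodes the other sterol C14 reductase, which acts in the endoplasmic reticulum at the same step as the reductase domain of LBR. Its level was 27.8 CPM in astrocyte-like and 3.05 in oligodendrocyte-like cells, which came next (ratio 9.11, 6.97 to 12.0), and no UMI was found in neutrophil-like cells (up to 4.45 CPM by the same limit). Of the UMIs of Tm7sf2 and Lbr together, Tm7sf2 held 63.6% in astrocyte-like cells (201 of 316 UMIs, exact binomial interval 58.0 to 68.9%). In the other 9 classes its share lay between 0% and 6.81%, the latter in microglia-like cells with 112 of 1644 UMIs. In the astrocyte-like cells of libraries 1 to 6 the share was 67.2, 65.1, 62.9, 64.1, 75.0 and 47.1%, of which library 5 rests on 4 UMIs and library 6 on 17. In each library this was above the share of every other class that had at least 10 UMIs there. The pair of promoters printed above differ in their letters, with 1 CCAAT box in the 100 bases before the start of Tm7sf2 and 2 before that of Lbr, and neither window holds a sterol core.

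**Figure D2:**
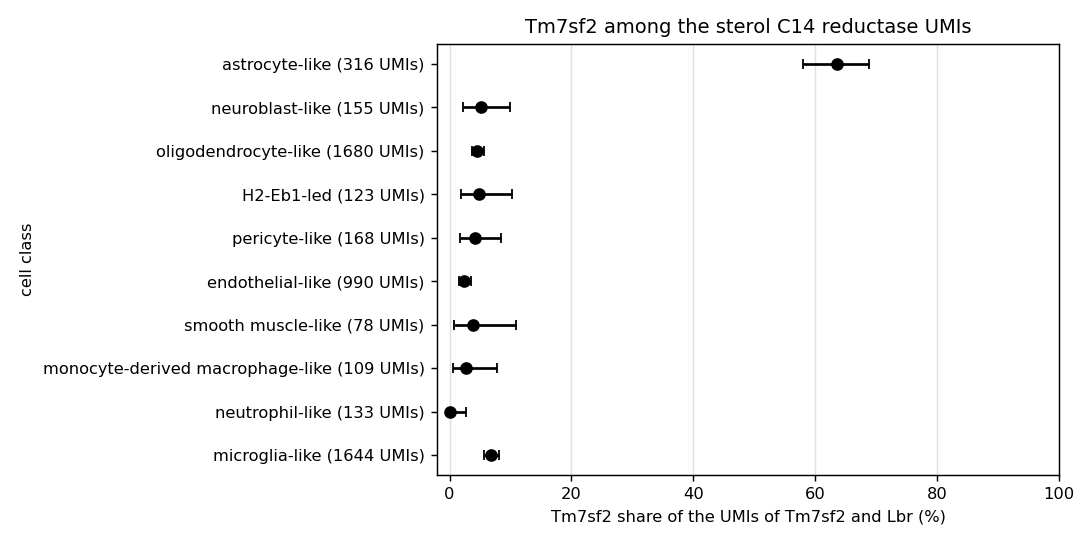
Share of Tm7sf2 (%) among the UMIs of Tm7sf2 and Lbr in each of 10 classes, with exact 95% binomial intervals as bars and the number of UMIs in brackets. The astrocyte-like point lies at 63.6%, and the 9 other points lie at or below 6.81%.

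Over all libraries together, each of the 3 control genes was highest in astrocyte-like cells. Their summed level was 352 CPM against 270 in oligodendrocyte-like cells (1.30, 1.25 to 1.36). In single libraries astrocyte-like cells were highest for Srebf2 in 5, for Scap in 4 and for Insig1 in 2 of 6. Srebf2, which encodes SREBP2, was at 124 CPM in astrocyte-like, 99.7 in neuroblast-like and 21.8 in microglia-like cells. Scap was at 33.0 CPM in astrocyte-like and 29.1 in oligodendrocyte-like cells, which could not be told apart (1.13, 0.976 to 1.31). Insig1, itself a target of SREBP2, was at 195 CPM in astrocyte-like and 164 in oligodendrocyte-like cells, but without library 2 the ratio of 1.19 became 0.956. Oligodendrocyte-like cells were highest for Insig1 in libraries 3, 4 and 5 (182, 143 and 181 CPM). In library 6 neuroblast-like cells were highest, at 147 CPM against 144 in astrocyte-like cells.

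The genes of traffic, storage and export were led by 5 different classes. The efflux sum was 308 CPM in microglia-like, 185 in monocyte-derived macrophage-like, 152 in astrocyte-like and 152 in oligodendrocyte-like cells, and lowest in smooth muscle-like cells at 20.9. Microglia-like cells were 1.67-fold above the macrophage-like cells (1.54 to 1.81) on the CPM scale, but this turned to 0.988 under median-of-ratios scaling, which scales each class by its median gene. Of the 376 macrophage-like cells, 122 were from library 4 and 236 from library 6. The microglia-like and macrophage-like efflux sums were 324 and 154 CPM within library 4, and 240 and 204 CPM within library 6. Microglia-like cells were highest in 6 of 6 libraries on the CPM scale, over the classes that had 20 or more cells there. However, they were level with astrocyte-like cells in library 5 (270 and 268 CPM) and with neutrophil-like cells in library 6 (240 CPM in both). The H2-Eb1-led class held unlike parts. Its 180 cells with dendritic cell markers had an efflux sum of 41.3 CPM. Its 77 cells with markers of perivascular macrophages had 240 CPM, above the macrophage-like class. In library 3 these perivascular cells (28 cells, 51 UMIs) had 375 CPM, against 352 in microglia-like cells. The equal sums of astrocyte-like and oligodendrocyte-like cells (1.00, 0.934 to 1.07) were made of different genes. Abca1, which loads cholesterol onto apolipoproteins, was at 144 CPM in astrocyte-like and 29.6 in oligodendrocyte-like cells, whereas Abcg1, which loads it onto formed particles, was at 8.43 and 123 CPM. In astrocyte-like cells Abca1 was at 135, 117, 153, 132, 263 and 153 CPM in libraries 1 to 6 and Abcg1 at 12.8, 4.18, 13.1, 2.79, 4.96 and 7.83. In oligodendrocyte-like cells the same libraries had Abca1 at 25.9, 15.7, 44.1, 31.8, 21.0 and 29.4 CPM and Abcg1 at 135, 124, 144, 107, 125 and 79.8, so that neither gene overlapped between these classes. Microglia-like cells had both, with Abca1 at 210 and Abcg1 at 98.1 CPM.

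Soat1, the enzyme that esterifies cholesterol, was at 273 CPM in astrocyte-like, 176 in monocyte-derived macrophage-like, 126 in neutrophil-like and 122 in microglia-like cells, and lowest in endothelial-like cells at 6.86. The order of its first 2 classes turned under median-of-ratios scaling (0.971 in place of 1.55). Npc1, the sterol transporter of the lysosomal membrane, was highest in oligodendrocyte-like cells at 230 CPM, 1.76-fold above astrocyte-like cells (1.64 to 1.88), and microglia-like cells followed at 119. Its partner Npc2, the soluble sterol carrier in the lysosome, had another order. Monocyte-derived macrophage-like cells were highest for Npc2 at 1259 CPM, H2-Eb1-led cells followed at 757 and microglia-like cells at 728, while smooth muscle-like cells had 109. Stard4, a cytosolic sterol carrier, was highest in endothelial-like cells at 71.5 CPM and in neuroblast-like cells at 27.7, a ratio of 2.58 (2.04 to 3.32). Endothelial-like cells were highest for Stard4 in 5 of 6 libraries. In library 1 astrocyte-like cells had 38.3 CPM against 34.3 in endothelial-like cells, and in library 2 these classes were level (47.4 and 47.6 CPM).

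**Figure D3:**
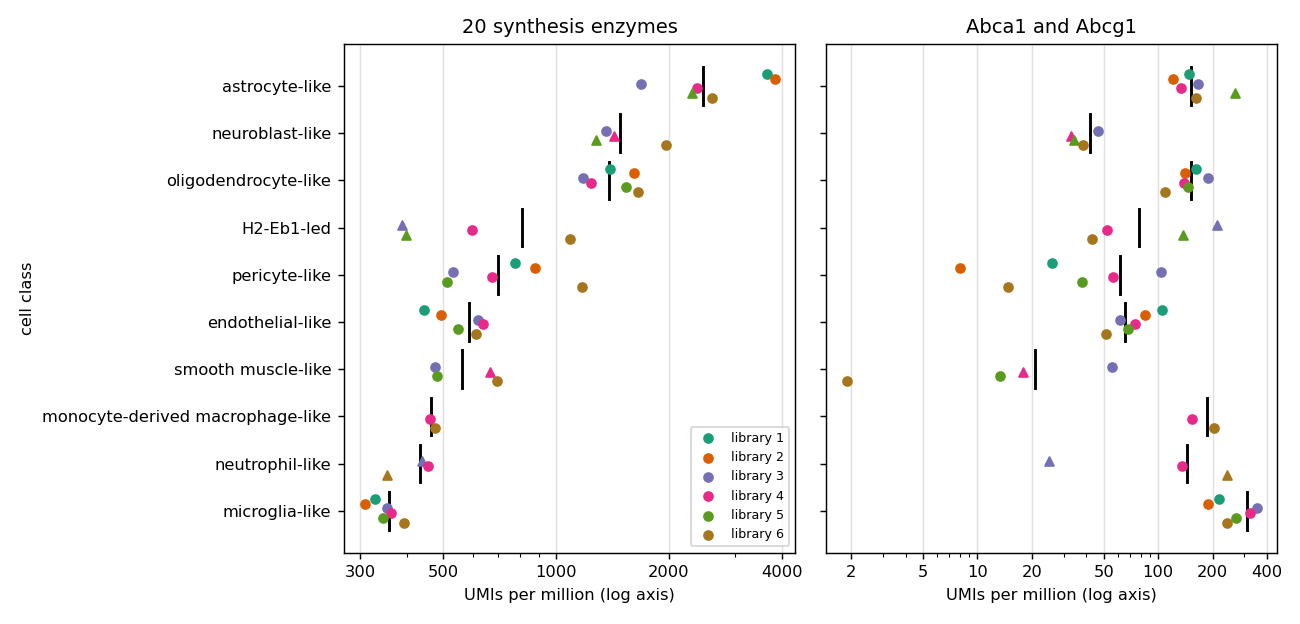
Synthesis sum (left) and efflux sum (right) in CPM on log axes for 10 classes. Points are libraries with at least 50 cells of the class, triangles libraries with 20 to 49 cells, and black bars the value over all cells. Astrocyte-like cells lie furthest right for synthesis in every library and microglia-like cells have the lowest black bar (358 CPM). For efflux the microglia-like bar lies furthest right on this CPM scale, an order of the first 2 classes that turns under median-of-ratios scaling (ratio 0.988).

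The other 28 genes of the pathway list, fixed with the roles of uptake, lipoproteins, lysosomal release and oxysterols, were counted by the same rule, and 24 of them entered. In astrocyte-like cells 7 were at least 2-fold higher (15.7% of all genes) and 6 at most 0.5-fold (26.8%). The higher ones included Srebf1, a transcription factor of lipid synthesis, at 167 CPM. They also included Apoe at 13612 CPM, the main apolipoprotein of the brain, Lcat at 218 CPM, which esterifies cholesterol on lipoproteins, the sterol transfer gene Gramd1b at 69.0 and the oxysterol hydroxylase Cyp7b1 at 77.5.

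In oligodendrocyte-like cells 6 genes of this list were higher (11.5% of all genes) and 8 lower (32.9%), the latter at the share of all genes. Apod, a lipocalin of lipoproteins, was at 2790 CPM, and the others were the receptor Vldlr at 104, Stard3 at 91.0, the ester hydrolase Nceh1 at 69.3, Gramd1b at 35.8 and Cyp27a1 at 20.1. Endothelial-like cells had 4 higher (10.4%) and 10 lower (26.7%), among the higher ones the phospholipid transfer protein Pltp at 2156 CPM, the lipoprotein receptor Scarb1 at 92.9, the lysosomal lipase Lipa at 164 and Ch25h, which makes 25-hydroxycholesterol, at 73.0. In microglia-like cells 4 were higher (12.1%) and 11 lower (27.9%). Mylip, a ligase that marks lipoprotein receptors for degradation, was at 449 CPM, and Lrp1, a receptor for apolipoprotein E, at 293, beside Stard3 at 139 and Gramd1a at 72.6.

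Pericyte-like cells had 4 of this list higher (11.0% of all genes) and 7 lower (22.5%). The higher ones were the LXR gene Nr1h3 at 168 CPM, Lrp1 at 254, Insig2 at 83.0 and Cyp7b1 at 51.2. Smooth muscle-like cells shared Insig2 (99.2 CPM) and Cyp7b1 (43.0), which were 2 higher (8.46%), and had 15 lower (27.0%). In monocyte-derived macrophage-like cells 3 were higher (6.03%), Lrp1 (261 CPM) and Nceh1 (109) among them, and 11 lower (50.2%), and H2-Eb1-led cells had Apoe (8021) and Cyp27a1 (24.0) higher (5.40%) and 9 lower (39.7%). In neuroblast-like cells 2 were higher (19.3%), Gramd1a (102) among them, and 14 lower (29.2%), and neutrophil-like cells had Abca7 (19.3) higher (7.60%) and 16 lower (64.9%).

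Between libraries, the synthesis sum of the astrocyte-like cells varied more than that of the other large glial classes. It was 3651, 3841, 1687, 2381, 2304 and 2610 CPM in libraries 1 to 6, with 164, 137, 410, 331, 32 and 90 cells. Libraries 1 and 2 were highest and library 3 lowest, a ratio of 2.28 (2.17 to 2.39) over the 5 libraries with at least 50 cells, and without library 3 the ratio was 1.61. Libraries 1 and 2 were also highest and library 3 lowest within each of the 2 astrocyte-like clusters, though libraries 1 and 2 changed places in the larger one. In the larger cluster, led by Aldoc, libraries 1, 2, 3, 4 and 6 had 4528, 4230, 1915, 2624 and 2869 CPM, and in the smaller one, led by Trim9 and Nwd1, 2484, 2499, 1049, 1343 and 1595. Over all libraries they had 2752 and 1603 CPM. The smaller cluster lay below the neuroblast-like cells in libraries 3, 4 and 6 (1360, 1431 and 1962 CPM). Its oligodendrocyte and microglial markers were at 4683 and 1743 CPM, against 242 and 538 in the larger cluster. Called doublets were 6.76% against 3.87%, and the part of these in its sum was not tested. Without called doublets, which were 10.0% of the astrocyte-like cells in library 3 and 0% to 3.33% in the others, the libraries 1 to 6 had 3701, 3915, 1790, 2399, 2304 and 2733 CPM. Microglial markers summed to 578, 194, 1547, 404, 94.2 and 831 CPM in these cells, against 12199 to 21397 CPM in the microglia-like cells, with at least 4 of the 7 markers above 0 in each library. The synthesis sum in free RNA was 1323, 1203, 708, 833, 955 and 996 CPM in libraries 1 to 6, also highest in libraries 1 and 2 and lowest in library 3. The part of these values in the astrocyte-like differences was not tested, and side, time, kit and sequencer of the libraries cannot be told apart from them.

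Of the 18 genes with enough UMIs to be compared between libraries in these cells, 9 differed at least 2-fold between the highest and the lowest library, against 25.5% of 3492 genes. The 9 genes were Hmgcs1, Pmvk, Idi1, Fdps, Sqle, Msmo1, Nsdhl, Dhcr7 and Insig1. The median ratio was 2.08 for the 18 genes and 1.64 for all genes. Insig1 differed most, with 358, 569, 123, 107, 129 and 144 CPM in libraries 1 to 6, a ratio of 5.33 (4.53 to 6.30). Idi1 was at 237, 343, 120, 128, 99.1 and 133 CPM and Hmgcs1 at 344, 461, 173, 196, 278 and 271 CPM. Of the 12 enzymes compared, 4 were highest in library 1 and 6 in library 2, beside 15.1% and 16.9% of all genes, and 9 were lowest in library 3, beside 8.45%. Srebf2 was flat by comparison at 134, 130, 106, 135, 154 and 135 CPM, and so were Soat1, between 218 and 317 CPM, and Npc1, between 113 and 164.

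**Figure D4:**
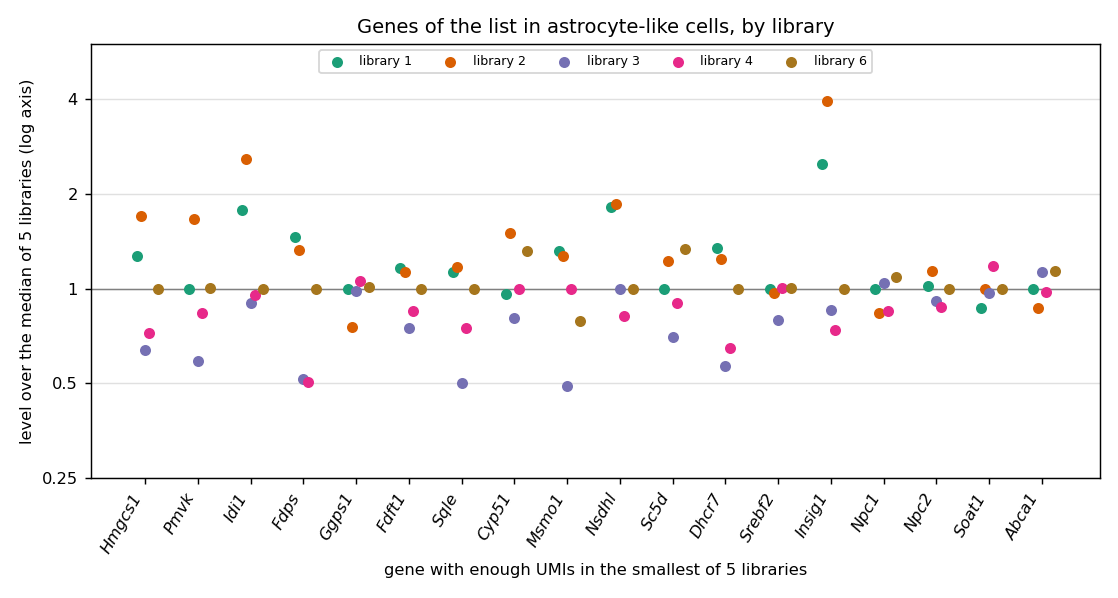
Level of each of 18 genes in astrocyte-like cells of libraries 1, 2, 3, 4 and 6, divided by the median of these libraries, on a log axis. Insig1 spreads most of these 18, with libraries 1 and 2 at the top, and library 3 is the lowest point for 9 of the 12 enzymes.

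In oligodendrocyte-like cells the synthesis sum was 1394, 1615, 1179, 1237, 1541 and 1653 CPM in libraries 1 to 6, a ratio of 1.40. Here 5 of 27 genes differed at least 2-fold (Mvk, Hsd17b7, Dhcr7, Stard4 and Abca1), against 16.2% of all genes. The 2 largest clusters of this class divided the libraries, since the cluster led by Opalin held 338 and 390 cells of libraries 1 and 2 and 11 of each of libraries 3 and 4, and the cluster led by Ptgds 2 and 3 cells of libraries 1 and 2 and 516 and 407 of libraries 3 and 4. Their synthesis sums were 1484 and 1218 CPM (ratio 0.821, 0.801 to 0.842). Within the Opalin-led cluster the libraries with at least 20 cells, which were 1, 2, 5 and 6, differed by a ratio of 1.17. Libraries 3 and 4, the lowest of the class, are not part of that ratio. Within the Ptgds-led cluster libraries 3 to 6 had 1169, 1248, 1470 and 1423 CPM. The cluster led by Enpp6 and Klk6 had 1637, 1988, 1525, 1540, 1566 and 1895 CPM in libraries 1 to 6. Only libraries 5 and 6 had at least 20 cells of both the Opalin-led and the Ptgds-led cluster, and there the sums were closer. The Opalin-led and Ptgds-led clusters had 1588 and 1470 CPM in library 5 (134 and 30 cells). In library 6 they had 1473 and 1423 CPM (128 and 40 cells).

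A small cluster led by Serpina3n and Il33, found only in library 4 (86 cells) and library 6 (53 cells), had a synthesis sum of 1437 CPM, or 1141 in library 4 and 1971 in library 6, and differed in single genes from the Opalin-led cluster. Sqle was at 101 CPM there (ratio 2.81, 2.30 to 3.42), Npc1 at 120 (0.507, 0.431 to 0.592), Abcg1 at 51.8 (0.469, 0.366 to 0.594) and Insig1 at 97.3 (0.554, 0.462 to 0.658). Oligodendrocyte markers summed to 25258 CPM in this cluster and 52595 in the Opalin-led one, and their part in these ratios was not tested. Within library 6, where both clusters had at least 20 cells, the ratios were 2.39 (1.54 to 3.72) for Sqle, 0.447 (0.335 to 0.588) for Npc1, 0.604 (0.356 to 0.986) for Abcg1 and 0.553 (0.383 to 0.784) for Insig1, and the ratio of the sum was 1.34 (1.23 to 1.45). Over all libraries together, the cluster led by Enpp6 and Klk6 had the highest sum of this class, 1696 CPM. In library 5 the Opalin-led cluster was above it (1588 and 1566 CPM), and in library 6 the Serpina3n-led cluster (1971 and 1895 CPM). The cluster led by Ptprd had the lowest sum over all libraries, 885 CPM. In it 29.6% of cells were called doublets and microglial markers were at 5767 CPM.

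In microglia-like cells the synthesis sum was stable at 329, 308, 353, 362, 345 and 393 CPM in libraries 1 to 6, a ratio of 1.28. Abcg1 was the only 1 of 13 genes that differed at least 2-fold, against 28.1% of all genes. Its lowest library was library 2 at 55.5 CPM and its highest library 3 at 111, and Abca1 at 141, 133, 240, 217, 170 and 179 CPM, in which libraries 3 and 4 were highest. Between microglia-like clusters Insig1 ranged from 13.1 CPM in the largest cluster, led by P2ry12, to 46.2 in that led by Cd83 and Atf3. This ratio was 3.52 (2.91 to 4.27), and it lay between 1.67 and 6.32 in each of the 6 libraries. The lowest value, 1.67 in library 2, had an interval that includes 1 (0.919 to 3.08). The largest cluster was the low one. Insig1 was at 34.2 CPM in the other P2ry12-led cluster (2418 cells), 31.3 in the Lpl-led and 42.9 in an Ifit3-led cluster (40 cells). Against the largest cluster, the Lpl-led ratio for Insig1 was 2.27 within library 4 and 3.41 within library 6, with intervals above 1. Within library 3 (21 cells) it was 1.63, with an interval that includes 1. In the cluster led by Lpl, Gpr84 and Mmp12, Sqle was at 4.34 CPM (3.66, 1.95 to 7.38) and Cyp51 at 20.8 (2.04, 1.62 to 2.58), while the synthesis sum was 0.937-fold that of the largest cluster. Within libraries 3, 4 and 6 the ratio of the sum was 1.01 (0.765 to 1.32), 0.796 (0.741 to 0.856) and 0.945 (0.827 to 1.09). The cluster had 810 cells of library 4 and 605 of library 6, whereas 1172 of the 2457 cells of the largest cluster were from library 3, and microglial markers were at 10757 against 24034 CPM. Within library 4 the ratio was 3.80 (1.35 to 14.8) for Sqle and 1.41 (0.948 to 2.15) for Cyp51, and within library 6 it was 1.69 (0.258 to 71.6) and 2.38 (1.06 to 6.61), so that in each library 1 of the genes was not apart from the largest cluster within counting error.

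Endothelial-like cells had the synthesis sum at 444, 494, 620, 640, 546 and 610 CPM, a ratio of 1.44, with libraries 1 and 2 lowest. Of 7 genes compared, Stard4 alone passed 2-fold, against 30.3% of all genes, at 34.3, 47.6, 79.5, 79.8, 70.8 and 71.8 CPM. The efflux sum ran from 105 CPM in library 1 to 51.3 in library 6. In the cluster led by Gkn3, Bmx and Sema3g, Abcg1 was at 7.85 CPM against 32.2 in the largest endothelial-like cluster (0.243, 0.128 to 0.425). Abca1 was at 54.9 against 33.8 CPM (1.63, 1.26 to 2.08). Within libraries 1, 3, 4, 5 and 6 the Abcg1 ratio was 0.268, 0.325, 0.562, 0.0561 and 0. Its interval included 1 in libraries 1 and 4. The Abca1 ratio was 2.15, 1.76, 1.30, 1.86 and 1.49 in the same libraries, with an interval that included 1 in libraries 4 and 6.

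Pericyte-like cells had the synthesis sum at 777, 876, 530, 674, 512 and 1177 CPM in libraries 1 to 6, a ratio of 2.30, and without library 6 of 1.71. In the larger cluster alone the sums were 777, 876, 530, 537, 512 and 744 CPM, and the Il11-led cells described next were found in libraries 4 and 6 only. Only Npc2 had enough UMIs in the smallest library for a comparison of its own, and it stayed under 2-fold, as against 40.3% of all genes past it. The efflux sum was 25.9, 8.04, 104, 55.9, 37.7 and 14.8 CPM. Microglial markers were at 285, 165, 2090, 1583, 994 and 538 CPM in the same cells, and called doublets at 6.10, 1.25, 10.3, 4.70, 4.71 and 2.54%. Without called doublets the efflux sum was 8.42, 8.41, 58.4, 49.0, 23.9 and 14 CPM. Whether microglial RNA contributes to the efflux sum of pericyte-like cells was not tested.

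Within the pericyte-like class, a cluster of 63 cells led by Ccl11, Il11 and Ednrb stood apart from the other 819 cells. It was found in library 4 (28 cells) and library 6 (35 cells) alone. Its synthesis sum was 1515 CPM (1392 to 1645) against 601 in the others, a ratio of 2.52 (2.29 to 2.77). Within library 4 the values were 1060 and 537 CPM, a ratio of 1.97 (1.62 to 2.40), and within library 6 they were 1886 and 744 CPM, a ratio of 2.54 (2.16 to 2.99). The pericyte markers summed to 9202 CPM in this cluster and 29903 in the others, and the fibroblast markers to 1563 and 212 CPM, so that the cluster holds less of the markers by which it was named. Its cells had a median of 5302 UMIs against 3321, and called doublets were 0% against 7.08%. The part of these differences in the sum was not tested.

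Genes entered this comparison by their level in the other pericyte-like cells alone, at least 5 CPM, a rule chosen after the data were seen. Of the 20 enzymes 18 entered, and 12 of these were at least 2-fold higher in the Il11-led cluster, against 7.77% of 10410 genes. Dhcr7, with 2 UMIs in the cluster, was the only enzyme at most 0.5-fold, against 26.4% of all genes. The median ratio was 2.76 for the 18 enzymes and 0.816 for all genes. The 4 of the 12 with most UMIs were Hmgcs1 at 180 against 51.3 CPM (3.5, 2.59 to 4.69), Fdps at 244 against 63.4 (3.84, 2.97 to 4.95), Cyp51 at 145 against 23.1 (6.27, 4.32 to 9.05) and Msmo1 at 193 against 66 (2.92, 2.20 to 3.84). Srebf2 (1.95, 1.41 to 2.65) and Npc2 (1.19, 0.905 to 1.55) did not reach 2-fold. With fewer UMIs, Sqle was at 93.8 against 16.3 CPM (5.74, 3.62 to 9.0), Idi1 at 123 against 27.9 (4.42, 3.02 to 6.39) and Insig1 at 85.8 against 34.0 (2.53, 1.64 to 3.78). Ebp and Lbr had ratios of 1.06 (0.697 to 1.57) and 1.25 (0.753 to 1.99), and Ggps1 was lower (0.516, 0.278 to 0.884). Abcg1 had no UMI in the cluster, against 40.7 CPM in the others (upper bound of the ratio 0.247). Most Abcg1 UMIs of the others, 85, came from library 3, which held no cell of the cluster. Libraries 4 and 6, where the cluster was found, supplied 21 and 6. These ratios of single genes are over all libraries together. Microglial markers were at 1611 CPM in the cluster and 1333 in the others. Of the 12 enzymes, Acat2 had an interval that includes 1 (0.797 to 5.10).

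**Figure D5:**
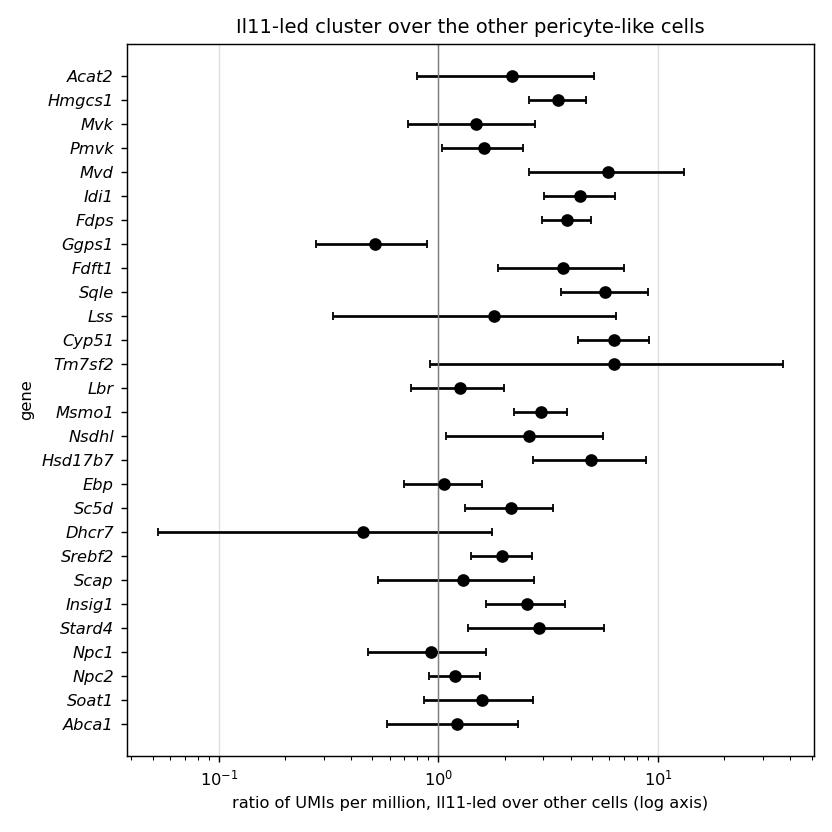
Ratio of CPM in the Il11-led cluster (63 cells) to that in the other 819 pericyte-like cells for 28 genes of the list, on a log axis, with exact 95% intervals of counting error as bars. Cyp51, Sqle, Idi1, Fdps and Hmgcs1 lie between 3.5 and 6.27, Ebp and Lbr lie near 1, Ggps1 lies at 0.516, and Abcg1 with no UMI in the cluster is not drawn.

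To find the genes whose pattern was most like that of the synthesis sum, log2(CPM + 10) of each of 11458 genes was correlated with that of the sum over 47 points, each a class in a library with at least 20 cells. Points share libraries and classes, the 20 enzymes are part of the sum, and the values are a description. Among the 5 highest Pearson correlations outside the list and the pathway were those of B3galt1 (0.919), Col9a3 (0.906), Cadm2 (0.897) and Mir100hg (0.895). Within the list Msmo1 (0.955), Hmgcs1 (0.947), Sqle (0.936) and Cyp51 (0.925) were most like their own sum, Lbr (-0.347) and Ebp (-0.390) ran against it, and in the pathway Mylip had -0.758.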

How the data were processed

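The authors deposited UMI counts per gene and barcode as whole numbers, made with Cell Ranger 5.0.1 (mm10 per the submitters' notes) and its aggr step, run for depth, so reads may have been thinned. Here, a barcode was kept if its UMIs reached 0.1 times the 99th percentile among the 3000 deepest of its library, with 200 or more features and no more than 10% mitochondrial UMIs. Of the 26 barcodes shared by libraries, each was treated as a separate cell. Counts were log-normalized at 10000, and 2000 variable genes without the list and pathway genes, 30 components, 20 neighbours and Leiden clustering (resolution 0.8, seed 1) gave clusters, named from markers. Doublets, called as in Scrublet, were kept unless stated.

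Members and lists were chosen with earlier results of these data known. Every gene of the list was named, and a pathway gene where at least 2-fold higher in a class; some genes that the rules would name are not reported here. Levels are CPM of summed UMIs. Ratios have exact conditional and shares exact binomial (Clopper-Pearson) 95% intervals. With 1 library per group, no test was run. Library comparisons needed 50 cells and an expected count of 30 in the smallest library. Steps were tested on simulated data. Software was Python 3.11.15, numpy 2.4.6, scipy 1.17.1, scikit-learn 1.9.0, igraph 0.11.9, leidenalg 0.10.2 and matplotlib 3.10.9.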

Additional observations from a re-analysis of the deposited data

How the results depend on the processing

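Of the alternative values of the main comparisons, 252 stayed within their counting interval or, for counts of genes, within 1.5 times, 34 moved and 1 turned. Median-of-ratios size factors turned the efflux ratio of microglia-like to monocyte-derived macrophage-like cells from 1.67 to 0.988, and also Hmgcs1 (0.963), Ebp (0.718) and Soat1 (0.971). They moved the synthesis ratio of astrocyte-like to neuroblast-like cells from 1.66 to 1.89, the Npc2 ratio from 1.66 to 1.95, the astrocyte-like library range from 2.28 to 2.41, the microglia-like genes above 2-fold from 2 to 1 and the pericyte-like genes below 0.5-fold from 8 to 16. Without Lbr and Ggps1 the synthesis ratio was 1.75 and the Il11-led ratio 2.94. Mean single-cell CPM gave 1.5 for efflux and 1.49 for Npc2, and the filters of the study alone, which kept 19864 cells, 1.49 for Npc2. At resolution 0.4 the pericyte-like count was 14 and the pericyte-like library range 1.71. Chosen after seeing the data, leaving out the H2-Eb1-led class kept each count of genes within 1.5 times. Also chosen so, the median of the other classes in place of their mean gave 5 microglia-like and 13 oligodendrocyte-like genes above. It gave 1 oligodendrocyte-like, 4 endothelial-like and 3 pericyte-like genes below. Chosen so as well, the Il11-led ratio was 1.97 within library 4. The oligodendrocyte-like range within the larger cluster, of the same kind, was 1.17 over libraries 1, 2, 5 and 6. Leaving out each library gave 1.54 to 1.83 for the synthesis ratio, 1.51 to 2.13 for efflux, 1.33 to 1.79 for Npc2, 1.34 to 1.4, 1.61 to 2.28 and 1.71 to 2.3 for the oligodendrocyte-like, astrocyte-like and pericyte-like ranges, and 1.82 to 3.08 for the Il11-led ratio. Entry of genes into the Il11-led comparison by an expected count over both groups, which a gene can pass through the cluster in which it is high, left 4 enzymes, each at least 2-fold higher. Insig1 turned to 0.956 without library 2. The causes were not tested. No paired analysis was possible because no replicate numbers exist and no library is tied to a group. Depth limits single genes in small classes.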

Other observations

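The classes and clusters left out of the order above had few cells. The B lymphocyte-like cells (55 cells) had a synthesis sum of 295 CPM (221 to 385), of which Lbr made 106 CPM, and no UMI of Sqle or Fdft1, which allows up to 16.7 CPM of each (the level of 3 UMIs). In the class with choroid plexus markers (22 cells) the sum was 550 CPM, with Abca1 at 11.7 CPM, and in the fibroblast-like class (31 cells) it was 572 CPM, with Abca1 at 137 CPM. The unnamed cluster led by hemoglobin genes (294 cells) had a synthesis sum of 304 CPM and an efflux sum of 376 CPM, with microglial markers at 14235 CPM. The unnamed cluster led by Ccl5, Gzma and Trbc2 (95 cells) had 426 and 67.3 CPM.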
